A study of Mus musculus with 12 samples.

Results

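Recurring elevation of intraocular pressure (IOP) was compared with no treatment in the retinas of young wildtype C57BL/6J mice by bulk RNA-seq. The treated eyes (4xIOP) were brought to 30 mmHg for 1 h biweekly, 4 times in total, starting at an age of 3 months, and whole retinas were taken on day 2 after the 4th elevation. The contralateral eyes of the treated animals were left untreated and gave the control retinas, so that both groups came from animals exposed to the treatment on one side. The experiment holds 4 of the 12 libraries of the series, 2 per group. The comparison takes in every gene whose average over these 4 libraries reached 0.5 FPKM, which gave 13718 of the 25124 genes listed. FPKM counts fragments, scaled to transcript length and to the number of tags in the library. Trim38, at a mean of 0.50025 FPKM, was the member closest to that limit from above, and Tbc1d8b, at 0.4995 FPKM, the excluded gene closest from below.

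The comparison asks which genes of a young retina differ in level after repeated mild elevations. The retina is organized in layers, with rods and cones that absorb light, bipolar, horizontal and amacrine cells that process the signal, and retinal ganglion cells that send it to the brain through the optic nerve. Müller glia span the tissue, astrocytes accompany the ganglion cell axons, and microglia are its resident immune cells. Pressure injury of the eye is known for the reactivity of these glial cells, for complement and interferon responses and for loss of ganglion cells. The IOP was raised through a needle in the anterior chamber, so an eye treated 4 times was also entered 4 times. The control eyes were not described as cannulated, and the effect of pressure and that of the procedure cannot be told apart in this comparison.

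The libraries held between 39766246 and 56161917 tags, of which 44.2% to 53.7% were counted in exons, and 3 reads on a transcript of 2 kb, taken as the smallest measured value, came to between 0.0267 and 0.0377 FPKM. Intervals and limits from reads cover counting error only. On the scale log2(FPKM + 0.5), the Pearson correlation across genes was 0.984 between the control libraries, 0.971 between the 4xIOP libraries and at most 0.935 between libraries of different groups. The study describes the libraries of a group as biological replicates, with only the right eye of an animal treated. The p-values rest on the spread between these libraries, moderated toward that of genes at a similar level. This moderation carried more weight, with 10.6 prior and 2 residual degrees of freedom. The library 4xIOP 2 had a higher ratio of short to long transcripts (2.91) than the other 3 (1.97 to 2.12). The RNase P RNA Rpph1, which has no poly(A) tail, took 1.73% to 2.68% of the tags although the labels describe poly(A) RNA. Gnat1, the rod transducin subunit and a defining gene of this tissue, stood at 1031 to 2835 FPKM. Xist was at most 0.005 FPKM and Y-linked genes were expressed in each of the 4 libraries.

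Gene expression differed mainly by rises in the treated eyes. Of 13718 genes, 748 (5.45%) were called higher and 95 (0.693%) lower in 4xIOP than in control retinas by limma, where a call required both a change of 1 or more on the log2 scale and a p of 0.05 or less after Benjamini-Hochberg adjustment. All log2 fold changes are differences of the mean log2(FPKM + 0.5), which understate the change of weakly expressed genes. The median over all tested genes was 0.0956, and the unadjusted p was under 0.05 for 2119 of them. For all 843 called genes the 2 libraries of one group lay wholly above or wholly below those of the other. The calls rest on the same 4 libraries, so this is not separate evidence. Of all tested genes 27.7% had both 4xIOP libraries above both controls and 12.7% both below. Among the genes called higher, 253 rose by at least 2 and 26 by at least 4 on the log2 scale, whereas 13 of the genes called lower fell by 2 or more. The genes called higher were weakly expressed in control eyes, with a median of 0.564 FPKM that became 3.77 FPKM in 4xIOP eyes. The genes called lower went from a median of 8.87 to 3.01 FPKM. Because the level for testing was set over both groups, 601 genes with a control mean under 0.5 FPKM were tested only through their 4xIOP libraries, and 362 of them (60.2%) were called higher, against 386 (2.94%) of the 13117 genes with a control mean of 0.5 FPKM or more. The former had to stand higher in 4xIOP eyes to be tested at all, so counts over the tested members of a list describe those members only, and the count among members with a control mean of 0.5 FPKM or more, called expressed in controls below, is given beside them. Rises made up 88.7% of the calls with FPKM as deposited and 77.9% after quantile normalization, which called 500 genes higher and 142 lower and moved the median of all genes to -0.0571. The falls lay closer to the fold threshold, with a median log2 fold change of -1.24 for the genes called lower and 1.67 for those called higher. A larger share of the falls than of the rises lost the call when 1 library was left out. Such a fit takes the residual spread from the other group alone, so a lost call does not show that the change rested on the library left out. Counting used strand, so reads are uncertain mainly for genes that overlap another on the same strand, which among those named below holds for H2-D1, Cntf and, with a microRNA locus inside them, C3, Cd74, Cfb, Nlrc5 and Glul. Timp1, Aldh1l1, B2m, Ccdc24, Ccl6, Cebpd, E130310I04Rik, Gbp2, Il1b, Nfkb2, P2ry12, Reep6 and Ttr overlap a gene on the opposite strand.

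**Figure D1:**
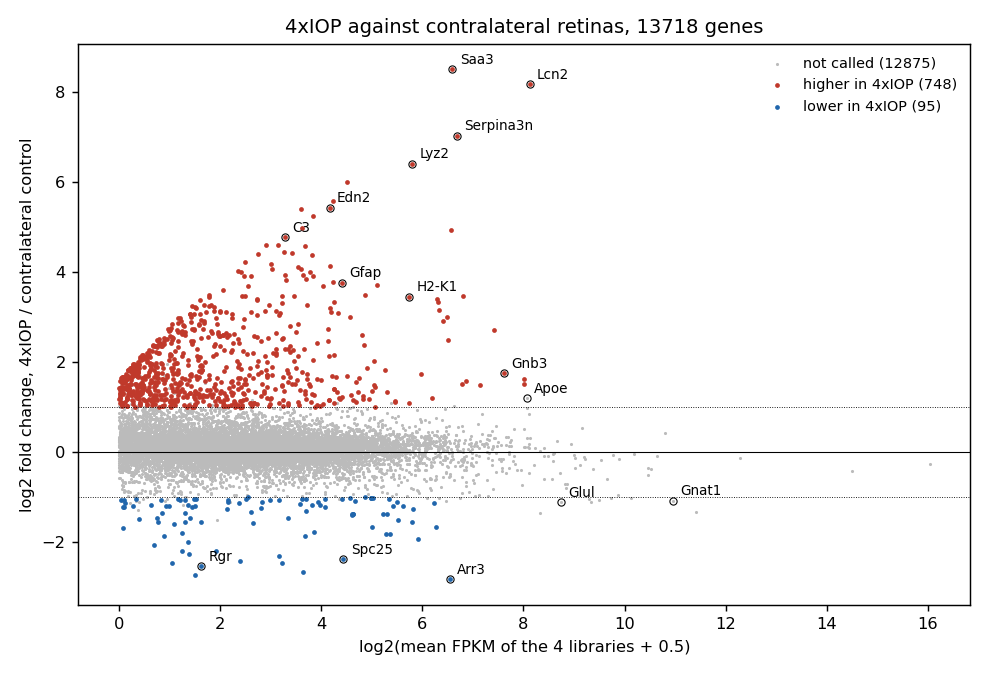
Log2 fold change of 4xIOP over contralateral control retinas (vertical axis) against the log2 mean level of 4 libraries (horizontal axis, FPKM + 0.5) for 13718 genes, with dotted lines at a log2 fold change of 1 and -1. Red points are the 748 genes called higher and blue points the 95 called lower, and circled genes are named, with Saa3 at 8.50 as the highest and Arr3 at -2.83 as the lowest.

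The largest rises were those of Saa3, Lcn2 and Serpina3n, secreted acute-phase genes that encode proteins released during inflammation, followed by Lyz2, described below. Saa3, an acute-phase serum amyloid A (NM_011315, chromosome 7, 46711998 to 46715676, mm10), had no read in either control and 126 and 259 FPKM in the 4xIOP libraries. Against a limit of 3 reads per control library this was at least 1381-fold higher (log2 fold change 8.50, standard error 0.294, limma adjusted p = 4.99e-09). Lcn2, a siderophore-binding lipocalin made by reactive glia and neutrophils, had 1.43 and 0.951 FPKM in the controls and 284 and 825 FPKM after the 4th elevation (8.18, standard error 0.404, limma adjusted p = 8.2e-08). It also had the largest absolute gain of any called gene. Serpina3n, a protease inhibitor and marker of reactive astrocytes, stood at 0.593 and 1.34 FPKM in the controls against 117.6 and 289.1 FPKM (7.03). Timp1, an inhibitor of matrix metalloproteases that lies within Syn1 on the opposite strand, stood at 0.057 and 0.215 FPKM against 25.5 and 63.0 FPKM (6.01). In Lcn2, Serpina3n and Timp1 the library 4xIOP 2 was more than 2 times as high as 4xIOP 1, and both libraries were far above the controls. Of 21 listed acute-phase genes 10 were tested and called higher, by 1.34 to 8.50. Of these 10, 6 were tested only through the 4xIOP libraries and 4 were expressed in controls. The list includes Cp, the copper oxidase ceruloplasmin (14.9 and 23.6 against 116 and 202 FPKM), and Hp, haptoglobin, which had no control read and 3.29 and 1.64 FPKM in 4xIOP eyes, at least 45.1-fold higher. Steap4, a metalloreductase induced by inflammatory cytokines, rose by 4.99 and Edn2, a ligand of the endothelin receptors, by 5.43 (0.035 and 0.731 against 33.7 and 35.4 FPKM). Edn2, tested only through the 4xIOP libraries, was the 1 called gene among 5 tested of the endothelin system.

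The complement list covered the initiating C1 complex, the central component, its activating factor and leukocyte receptors, and 12 of its 13 tested members were called higher, with none lower. Of the 5 members expressed in controls 4 were called higher. C3, the central component on which the activation routes converge, went from 0.158 and 0.209 FPKM in controls to 18.8 and 17.6 FPKM (log2 fold change 4.78, standard error 0.191, limma adjusted p = 1.52e-08). Its values were close within each group and separated by a wide gap. C4b rose by 4.06, from 0.484 and 1.404 FPKM to 22.3 and 22.4 FPKM. The 3 chains of C1q, which binds targets and starts the classical route, changed by similar amounts: C1qa by 3.33, C1qb by 3.68 and C1qc by 3.26. Cfb, the protease precursor of the alternative route, was at 0 and 0.026 FPKM in controls and at 8.78 and 3.04 FPKM in 4xIOP eyes (3.48). Itgam and Itgb2, the chains of complement receptor 3, rose by 3.13 and 3.07. Of 8 tested regulators that restrain complement, 4 were called higher, including Serping1, the inhibitor of C1 (1.42 and 1.45 against 29.42 and 37.98 FPKM, 4.13) and Cfi, which cleaves active C3 and C4 fragments (2.12).

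**Figure D2:**
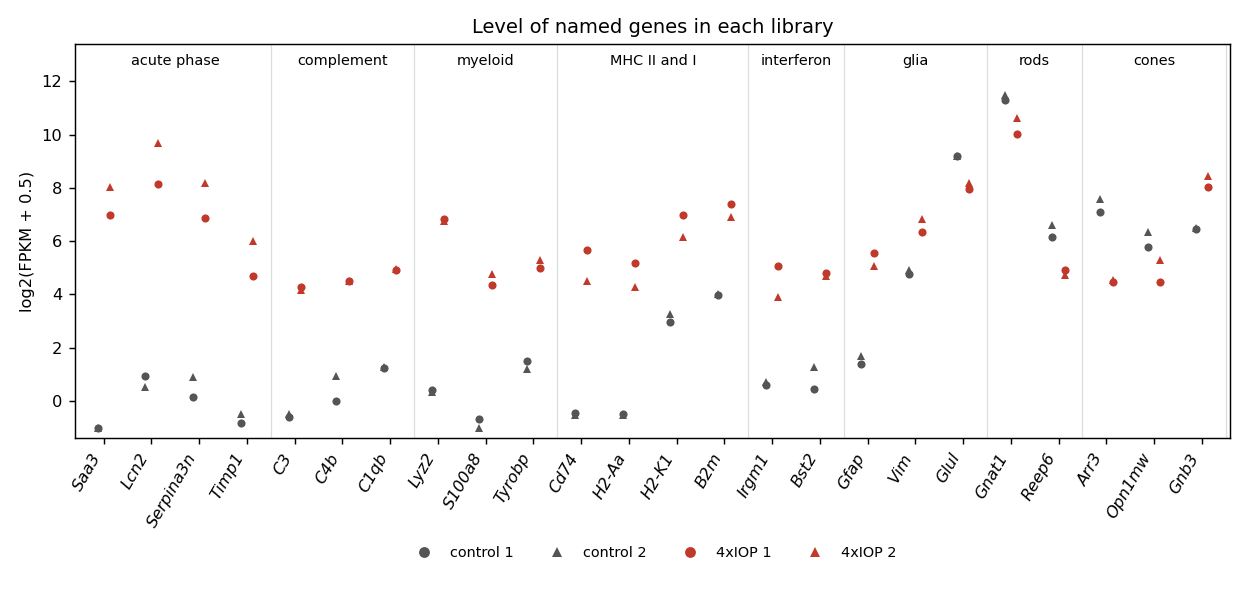
Level of 24 genes in each of the 4 libraries, as log2(FPKM + 0.5), with controls in grey, 4xIOP in red, circles for library 1 and triangles for library 2 of each group. The 4xIOP points lie above both controls for genes such as Saa3, C3 and Cd74 and below both for Glul, Gnat1 and Arr3.

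Interferons act through receptors that activate STAT and IRF factors, and these switch on antiviral genes and the machinery that presents antigens. Of 18 tested interferon signaling and regulator genes, 10 were called higher and none lower, with 7 of the 15 expressed in controls. Irf9, a DNA-binding subunit of the interferon-activated complex, had 2.34 and 3.83 FPKM in controls and 34.6 and 29.4 FPKM in 4xIOP eyes (3.21). In the same list, Nlrc5 rose by 3.24, Irf8 by 2.71 and Usp18, a feedback inhibitor of the receptor, by 2.67. Among 30 tested antiviral interferon-stimulated genes, 27 were called higher, with 18 of the 20 expressed in controls (median of these 20, 2.205), led by Ifi27l2a (4.07) and Bst2, a membrane tether of enveloped viruses (0.849 and 1.89 against 27.6 and 25.2 FPKM, 3.90). Ifitm3, which blocks viral entry, rose by 3.10 and Ifit3, an RNA-binding effector, by 2.73. The family of interferon-induced GTPases, which act on the membranes around intracellular pathogens, had 15 of 16 tested members called higher, with 6 of the 6 expressed in controls. Irgm1 went from 1.00 and 1.14 FPKM to 33.4 and 14.5 FPKM (3.85), Igtp from 1.06 and 1.35 to 27.4 and 12.1 (3.47), and Gbp2 from 0.700 and 1.238 to 23.3 and 10.2 (3.46). For the GTPases 4xIOP 1 was higher than 4xIOP 2 in all 16 tested members, and the number called was 10 of 16 by voom on recovered reads and 9 after quantile normalization.

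The promoters of genes called higher were searched for 3 sequence patterns on both strands, in windows from 250 bases before to 50 after the start from RefSeq (GRCm38.p6). Patterns were matched for 10390 tested genes, 559 called higher and 64 called lower. The interferon-stimulated response element pattern (ISRE, 2 GAAA units separated by 2 bases), recognized by IRF and STAT complexes, was present for 11.99% of genes called higher, 3.13% of genes called lower and 3.62% of all tested genes. It was found for 9 of 10 GTPase genes and for 13 of 23 antiviral genes with a promoter. The GAS pattern (TTCNNNGAA), bound by STAT dimers, was present for 12.9% of genes called higher and 8.22% of all tested genes, and an NF-kB-type pattern for 17.0% and 12.5%. Across all 32851 promoters in the table the shares were 3.44%, 8.30% and 8.46%. These counts describe letters in a window, and binding was not measured in these libraries. Of the 748 genes called higher, 362 were tested only through their 4xIOP libraries, and the shares were not split by the level in controls. The stretches of 80 bases below lie upstream of the start of genes with large rises that hold the ISRE pattern, printed on the strand of the gene with the pattern in capitals. In Bst2 and Irgm1 the stretch held 2 matches.
Saa3, chr7:46715757-46715836, minus strand: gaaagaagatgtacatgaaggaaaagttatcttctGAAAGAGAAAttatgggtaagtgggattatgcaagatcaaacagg
Bst2, chr8:71537552-71537631, minus strand: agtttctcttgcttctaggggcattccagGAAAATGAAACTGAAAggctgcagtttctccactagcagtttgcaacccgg
Irgm1, chr11:48871421-48871500, minus strand: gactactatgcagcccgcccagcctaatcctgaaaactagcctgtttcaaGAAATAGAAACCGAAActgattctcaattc
The next 2 stretches hold the GAS pattern. Steap4 and Socs3 are shown as examples among the genes with the largest rises.
Steap4, chr5:7960320-7960399, plus strand: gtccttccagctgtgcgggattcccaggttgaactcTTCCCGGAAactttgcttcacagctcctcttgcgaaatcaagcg
Socs3, chr11:117969477-117969556, minus strand: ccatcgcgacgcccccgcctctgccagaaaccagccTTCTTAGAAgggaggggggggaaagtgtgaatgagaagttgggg

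Genes of both branches of antigen presentation were called higher. MHC class I molecules show peptides from within a cell to cytotoxic lymphocytes, and 17 of 22 tested genes of class I and its peptide supply were called higher with none lower, and 13 of the 18 expressed in controls (median of these 18, 1.73). H2-K1 had 7.27 and 9.07 FPKM in controls against 126 and 70.2 FPKM (3.46 on the log2 scale, limma adjusted p = 8.52e-06), and the common light chain B2m had 15.3 and 15.7 against 170 and 119 FPKM (3.16). H2-D1 rose by 3.33, and because it overlaps H2-L on the same strand and class I genes share long stretches of sequence, the division of reads among these genes is uncertain. Tap1, a subunit of the peptide transporter, rose by 3.94, the immunoproteasome subunit Psmb9 by 3.37 and Nlrc5, the transactivator of class I genes, by 3.24. MHC class II molecules present engulfed antigens and are normally made by a few kinds of immune cell. Of 11 listed class II genes 7 were tested and called higher, 5 of them tested only through the 4xIOP libraries and 2 expressed in controls. Cd74, the invariant chain that escorts class II molecules, stood at 0.228 and 0.195 FPKM in controls and at 50.6 and 22.1 FPKM in 4xIOP eyes (5.58, limma adjusted p = 1.78e-07). H2-Aa went from 0.202 and 0.190 to 36.0 and 18.7 FPKM (5.25), H2-Ab1 rose by 4.43 and H2-Eb1 by 4.40. Ctss, the protease that trims Cd74, rose by 3.71. The class II genes were higher in 4xIOP 1 than in 4xIOP 2 in 7 of 7 cases.

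Many markers of myeloid immune cells were higher in the treated eyes. In bulk RNA a change in the number of cells of a type and a change in RNA per cell cannot be told apart. Of 15 tested microglial markers, 13 were called higher, with 7 of the 8 expressed in controls (median of these 8, 2.36), and the summed level of all 17 listed markers was 21.4 and 21.5 FPKM in controls against 152 and 168 FPKM in 4xIOP eyes. Aif1, the microglial and macrophage protein IBA1, rose by 3.46, while the microglial purine receptor P2ry12 was not called (0.56, chosen after its value was seen). Of 15 listed monocyte and macrophage markers 11 were tested and called higher, 9 of them tested only through the 4xIOP libraries and 2 expressed in controls, and all 15 listed summed to 3.93 and 3.27 FPKM in controls against 177 and 144 FPKM. Lyz2, the lysozyme of myeloid cells, went from 0.837 and 0.764 FPKM to 113 and 107 FPKM (6.41, standard error 0.217, limma adjusted p = 4.99e-09), the smallest p of all called genes together with Saa3. Ccr2, the receptor that draws monocytes from blood, was at 0.014 and 0.013 FPKM in controls and 4.18 and 3.03 FPKM in 4xIOP eyes (2.99). The macrophage list also held Plac8 (3.92). Outside the lists, Cd52, a surface peptide of leukocytes, rose by 4.58 and Wfdc17 by 4.59.

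Of 13 listed neutrophil markers 5 were tested and 4 called higher, 3 of which were tested only through the 4xIOP libraries. S100a8 and S100a9, the chains of calprotectin, had at most 0.130 FPKM in controls and went to 20.2 and 26.5 FPKM and to 12.08 and 15.96 FPKM. For S100a8, with 2 control reads in all, the ratio of reads per tag was 363 (95% exact interval 100.3 to 3004, counting error only). Csf3r, the receptor of the granulocyte growth factor, rose by 2.43. The sum of the 13 listed neutrophil genes was 4.59 and 3.21 FPKM in controls against 325 and 874 FPKM, and in the 4xIOP eyes most of it was Lcn2, which reactive glia also make. Among the 8 listed genes that were not tested, the chemokine receptor Cxcr2 was at 0 in both controls and at 0.943 and 0.895 FPKM in 4xIOP eyes, and the protease Mmp8 at 0 in both controls and at 0.088 and 0.233 FPKM. The granule genes Ngp, Camp, Elane and Mpo and the marker Retnlg were at 0 in all 4 libraries, and Ly6g was at most 0.039 FPKM. Of 18 listed lymphocyte markers 17 were in the table, and none of these reached the level for testing. Their sum was 0.327 and 0.438 FPKM in controls and 4.17 and 1.72 FPKM in 4xIOP eyes, with the natural killer gene Klrd1 at 0.891 and 0.248 FPKM. Of 3 tested dendritic cell markers, 1 (Itgax, 1.58) was called higher, though neither it nor Pf4 below was expressed in controls. Of 6 tested blood markers, the platelet chemokine Pf4 (2.93) was the 1 called gene.

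Genes that recruit and equip such cells were in part higher. Among 17 tested chemokines and receptors 10 were called higher, 7 were not called, and 3 of the 8 expressed in controls were called, with changes from -0.55 upward. After quantile normalization 6 were called. The 10 include Ccl12 (3.12), Ccl6 (3.23) and Ccl2, which attracts monocytes (0.188 and 0 against 3.33 and 5.23 FPKM, 3.00). Among 11 tested adhesion molecules and integrins 7 were higher (2 of 5 expressed in controls), with Icam1 at 2.80 and Vcam1 at 2.13, both ligands of leukocyte integrins on endothelium. Of 7 tested Fc receptors, which bind antibody, 6 were called higher (1 of 2 expressed in controls), with Fcgr3 at 3.47 and Fcgr2b at 3.38. Of 10 tested Toll-like receptors and adaptors 5 were higher (1 of 4 expressed in controls), among them Tlr2 (2.46), Tlr13 (1.77) and the chaperone Unc93b1 (2.98). Of 12 tested inflammasome and interleukin 1 genes 8 were higher (3 of 6 expressed in controls), and 5 after quantile normalization. Il1b, the secreted cytokine, had at most 0.035 FPKM in controls and 4.72 and 4.17 FPKM in 4xIOP eyes (3.26), Casp1, which matures it, rose by 1.86 and the adaptor Pycard by 1.94. Genes of disease-associated microglia, a state described in degenerating nervous tissue, had 16 of 21 tested members called higher (11 of 16 expressed in controls, median of these 16, 1.38), with Lgals3 at 2.95 and Tyrobp at 3.78. Of 22 tested lysosomal genes 10 were higher and 12 were not called (9 of 21 expressed in controls were higher), among them Cd68 (2.60), Laptm5 (2.54) and Ctsh (2.14), and 6 were called without control 2.

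**Figure D3:**
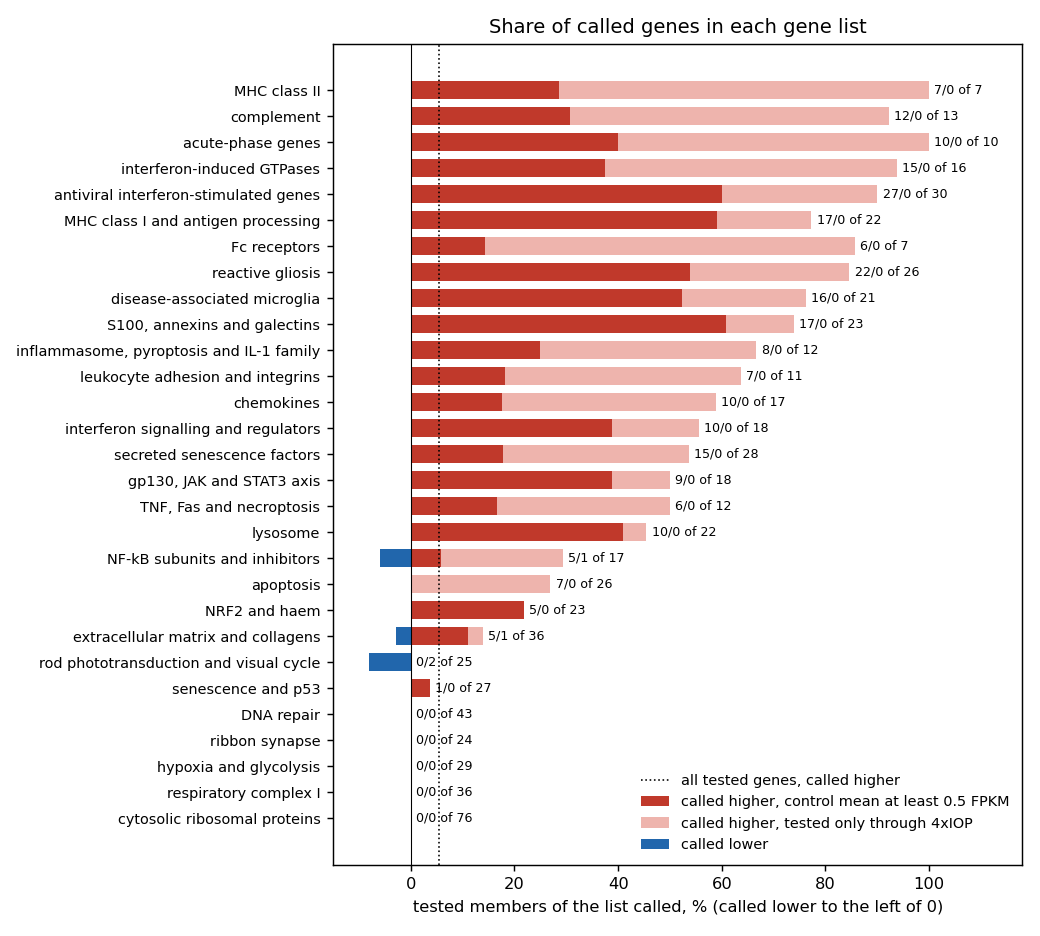
Share of the tested members of 29 gene lists called higher (red to the right of 0, pale red for members tested only through the 4xIOP libraries) and called lower (blue, to the left) in 4xIOP retinas, with the counts of members called higher and lower and the number tested beside each bar. The dotted line is the 5.45% of all tested genes called higher, and MHC class II and acute-phase genes reach 100% largely with pale bars, whereas full red covers 18 of 30 antiviral genes, and DNA repair and ribosomal proteins are at 0.

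Of 26 tested genes of reactive gliosis, 22 were called higher and none lower, with 14 of the 18 expressed in controls (median of these 18, 2.75). Lists share members, and 22 of the 30 genes listed for gliosis and 9 of the 21 listed for the acute phase, Lcn2 among both, also stand in another list. Gfap, the intermediate filament of astrocytes and stressed Müller glia, had 2.14 and 2.69 FPKM in controls and 46.1 and 32.7 FPKM in 4xIOP eyes (log2 fold change 3.76, standard error 0.240, limma adjusted p = 6.03e-07). Socs3, the feedback inhibitor of gp130 receptors, rose by 4.19 (0.351 and 0.313 against 16.2 and 13.2 FPKM), Osmr, the receptor of oncostatin M, by 2.51 and Stat3 by 2.15. In the gp130, JAK and STAT3 list 9 of 18 tested genes were higher, with 7 of the 15 expressed in controls. Among 12 tested genes of the FGF system 1 was called, beside 5.45% of all tested genes called higher. It was the growth factor Fgf2 (0.62 and 1.57 against 21.9 and 24.1 FPKM, 3.94). Among 11 neurotrophic factors and receptors 1 was called, also beside 5.45%. It was the cytokine Cntf (2.03), which was not called without 4xIOP 2 (1.86). Of 18 tested markers of Müller glia 5 were called higher (median 0.542), including Crym (18.1 and 19.4 against 113 and 186 FPKM, 2.92), Clu (1.51) and Vim (1.74). Without control 1 or control 2 the fits called 2 and 3 of these 18, and Clu (1.46 and 1.57) and Vim (1.66 and 1.82) kept their size but not their call. Glul, the glutamine synthetase with which Müller glia clear glutamate, went the other way, from 579 and 592 FPKM to 249 and 292 FPKM (-1.12, limma adjusted p = 0.151), and was called lower in 5 of 12 alternative fits. Of 7 tested astrocyte markers 2 were called higher, Gfap and Aldh1l1 (1.72).

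S100 proteins, annexins and galectins, which respond to calcium and tissue stress, had 17 of 23 tested members called higher, with 14 of the 20 expressed in controls (median of these 20, 1.57). S100a6 went from 6.69 and 3.90 FPKM to 117 and 250 FPKM (4.93, limma adjusted p = 1.76e-06) and S100a4 rose by 3.12. The median change of these members was 1.17 in 4xIOP 1 and 1.99 in 4xIOP 2, and 2 of 23 were higher in 4xIOP 1. Without 4xIOP 2 the number called was 11. Metallothioneins bind zinc and copper. Of 7 tested genes in a list of metallothioneins, their regulator and zinc transporters 3 were called higher, namely Mt2 at 13.6 and 20.2 FPKM in controls against 128 and 282 FPKM (3.48), Mt1 (2.71) and the zinc transporter Slc39a1 (1.38). Without control 1 the number called was 1 of 7, and Mt1 was at 2.43 and Slc39a1 at 1.36. Of 23 tested genes of the NRF2 and heme response 5 were higher, led by Hmox1, which degrades heme (2.77), and 2 were called without control 1, without control 2 or without 4xIOP 2, and 3 after quantile normalization. Of 18 tested iron genes 5 were higher (3 of 16 expressed in controls), among them Trf, transferrin (22.5 and 29.9 against 108 and 202 FPKM, 2.48).

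Some transcription factors of inflammatory signaling were called higher. Cebpd, a C/EBP factor, went from 0.858 and 1.42 FPKM to 22.8 and 28.0 FPKM (3.99 on the log2 scale, limma adjusted p = 2.19e-07), and Cebpb rose by 1.49, so that 3 of 6 tested C/EBP genes were called (1 of 4 expressed in controls), and 2 after quantile normalization. Among 17 tested NF-kB subunits, kinases and inhibitors 5 were called higher, 1 lower and 11 not called, and of the 12 expressed in controls 1 was called higher. Bcl3, a nuclear cofactor of NF-kB, had the largest rise (0.083 and 0.052 against 6.68 and 4.88 FPKM, 3.45), and Relb (1.36) and Nfkb2 (1.38) were also called. Neither was called with a pseudocount of 1, nor was Nfkb2 with median-of-ratios factors or after quantile normalization, both of which gave 3 genes called higher in this list. Tnfaip3, which encodes the NF-kB inhibitor A20, fell from 53.5 and 66.0 FPKM to 14.8 and 18.4 FPKM (-1.82, limma adjusted p = 0.000598). Without control 2 the value for Tnfaip3 was -1.67 with limma adjusted p = 0.056. Of 12 tested genes of TNF, Fas and necroptosis signaling 6 were higher (2 of 8 expressed in controls), among them Tnfrsf1a (2.59), Fas (1.75) and Zbp1, a sensor of nucleic acids (2.55). Of 26 tested apoptosis genes 7 were called higher, Bcl2a1b (3.26) and Casp8 (1.503) among them, but each of the 7 was tested only through the 4xIOP libraries, and none of the 19 expressed in controls was called higher by limma.

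Of 27 tested genes of senescence and the p53 response 1 was called higher, Gadd45b (2.64). That is 3.70% beside 5.45% of all tested genes, while 48.15% of the list, beside 27.7% of all tested genes, had both 4xIOP libraries above both controls. The cell cycle inhibitor Cdkn1a had 0.264 and 0.322 FPKM in controls and 1.04 and 0.719 FPKM in 4xIOP eyes (0.79, limma adjusted p = 0.104). Cdkn2a was at 0 in 3 libraries and 0.077 FPKM in 4xIOP 2, and Gdf15 was at most 0.258 FPKM. Plaur stood at 0.067 and 0 FPKM in controls and at 0.618 and 0.742 FPKM in 4xIOP eyes. These 3 genes did not reach the level for testing. Secreted factors linked to senescence, many of which are also inflammatory genes, had 15 of 28 tested members called higher (5 of 15 expressed in controls), and Mmp14, a membrane metalloprotease, rose by 1.05. Without control 1 and without 4xIOP 1 the values for Mmp14 were 0.97 and 0.94 and the call was lost. It was also lost with median-of-ratios factors, after quantile normalization, with a pseudocount of 1 and without a filter on low values. Of 15 tested genes of proliferation 1 was called higher, beside 5.45% of all tested genes. Of the 15, 7 (46.67%, beside 27.7% of all tested genes) had both 4xIOP libraries above both controls. Listed members too low to be tested also had both above, among them Mki67 (0.005 and 0.005 against 0.529 and 0.555 FPKM) and Top2a (0 and 0.014 against 0.849 and 1.005 FPKM). Of 43 DNA repair genes none was called by limma. In the matrix 5 of 36 tested genes were higher and 1 lower (4 of 30 expressed in controls were higher). Of 14 matrix proteases and inhibitors 5 were higher (3 of 11 expressed in controls), with Adamts1 at 1.67. Of 17 genes of TGF-beta and BMP signaling 3 were higher (3 of 16 expressed in controls). Over all tested genes 5.45% were called higher and 0.693% lower. Without control 1 or without 4xIOP 1 fewer members of each of these lists were called, and without control 2 fewer of TGF-beta and BMP signaling. Without 4xIOP 1 the DNA repair list had 2 calls and the proliferation list 2, and without any one of the other libraries the proliferation list had none. Of 15 tested axon injury genes 2 were higher (2 of 14 expressed in controls), beside 5.45% of all tested genes. Atf3, induced in injured neurons, was at 3.78 and 2.71 FPKM in controls against 15.3 and 19.9 FPKM (2.27). Fewer axon injury genes were called without control 2 or without either 4xIOP library. Of 21 genes of the integrated stress response 2 were higher, beside 5.45% of all tested genes, one of them Nupr1 (2.38). Of 19 immediate early genes 4 were higher (3 of 18 expressed in controls), among them Junb (1.67), and Dusp1 was lower (6.18 and 5.24 against 1.86 and 2.35 FPKM, -1.26). Without 4xIOP 2 the immediate early genes called higher were 2. After quantile normalization the higher calls were 3 for the matrix, 2 for its proteases and inhibitors, 1 for TGF-beta and BMP, 2 for immediate early genes and 0 for proliferation.

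Most rod genes stood at lower levels in both treated libraries, but few were called. In rods, the light signal passes through the G protein transducin to a phosphodiesterase, whose activity leads to the closing of cation channels. Of 20 tested rod markers, 18 had both 4xIOP libraries below both controls, which is 90.0% against 12.7% of all tested genes, and the median log2 fold change was -0.81. Of these 20 markers 14 also stand in another list, and so do 15 of the 25 genes of rod phototransduction described below. One was called lower, beside 0.693% of all tested genes: Reep6, a rod protein of membrane traffic, at 70.3 and 96.0 FPKM in controls against 29.6 and 25.7 FPKM (-1.56, limma adjusted p = 0.00368). Gnat1 was at 2535 and 2835 FPKM in controls and at 1031 and 1558 FPKM in 4xIOP eyes (-1.08, standard error 0.554, limma adjusted p = 0.411). The groups were separate, but the fitted spread was widest at such levels. The median standard error was 0.483 for the 29 genes averaging 500 FPKM or more, of which none was called, against 0.228 over all tested genes. With a spread that does not depend on the level 8 of the 20 rod markers were called lower, and by voom on recovered reads 9 were, Gnat1 among them in both. After quantile normalization 3 were called and with median-of-ratios factors 4. Without control 1 or without control 2 none of the 20 was called, Reep6 being at -1.78 and -1.33, and without 4xIOP 2 there were 3. Sag, the rod arrestin, was at 1700 and 1313 FPKM in controls and 1583 and 2571 FPKM in 4xIOP eyes, without separation. Of 25 tested genes of rod phototransduction and the visual cycle 23 were lower in both 4xIOP libraries and 2 were called, Rgs9bp (-1.27) and Gucy2f (-1.08). Neither was called without control 1 (-1.35 and -1.14) or without control 2 (-1.19 and -1.02), and Gucy2f was also lost without 4xIOP 1 (-0.77). The call of Gucy2f was further lost with a replicate block, with the length trend removed and without a filter on low values. Without 4xIOP 2 this list had 4 calls, after quantile normalization 4, with median-of-ratios factors 5, with the level-independent spread 8 and by voom 9. The summed level of the rod markers was 16915 and 17450 FPKM in controls against 7940 and 12198 FPKM in 4xIOP eyes.

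**Figure D4:**
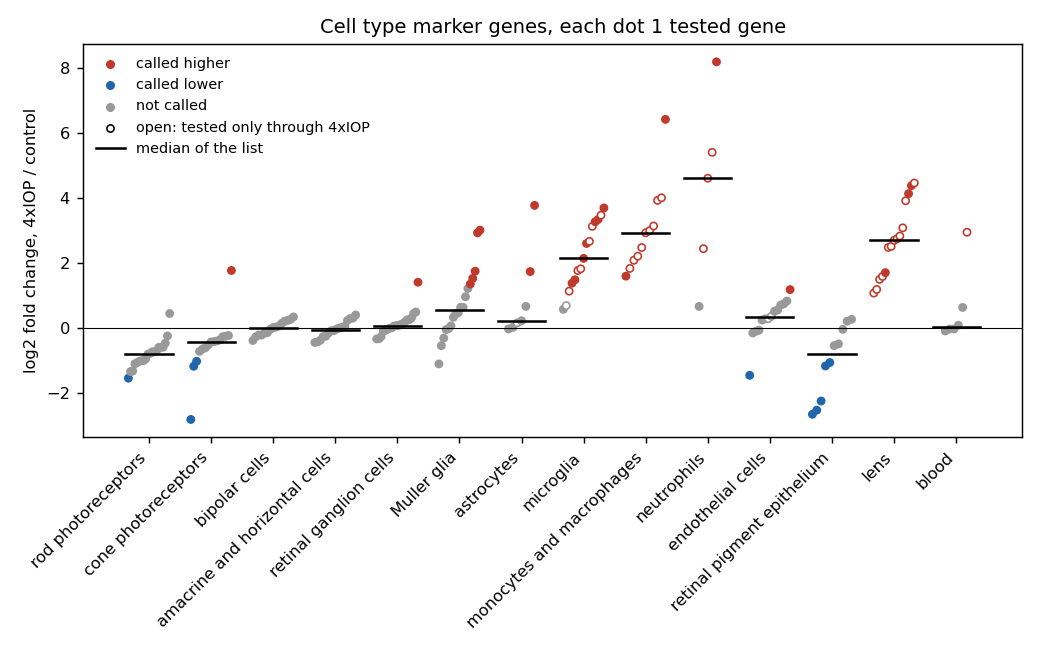
Log2 fold change of 4xIOP over control for each tested marker gene of 14 cell types, with red for genes called higher, blue for genes called lower, grey for the rest, open dots for genes tested only through the 4xIOP libraries, and a black line at the median of each list. Rod and cone markers lie mostly below 0, markers of microglia, macrophages and lens above it, and retinal ganglion cell markers around it.

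Cone genes did not move as 1 group. Arr3, the cone arrestin that quenches activated opsins, had the largest fall of all called genes, from 137 and 190 FPKM to 21.8 and 22.9 FPKM (log2 fold change -2.83, standard error 0.302, limma adjusted p = 3.6e-05), and it was called in all 12 alternative fits and in each fit without 1 library. Gnb3, the transducin beta subunit shared by cones and ON bipolar cells, rose from 86.6 and 90.0 FPKM to 262 and 343 FPKM (1.76, limma adjusted p = 0.00575). Without control 1 or control 2 Gnb3 was at 1.73 and 1.79 and was not called. Of 15 tested cone markers 12 were lower in both 4xIOP libraries, beside 12.7% of all tested genes, and 3 were called lower, beside 0.693%, with a median of -0.44. The other two were Gnat2, the cone transducin (55.4 and 52.1 against 21.5 and 31.3 FPKM, -1.04), and the middle wavelength opsin Opn1mw (54.9 and 80.3 against 21.7 and 38.3 FPKM, -1.19). The call of Opn1mw was lost without each of the 4 libraries in turn (-0.79 to -1.59), and that of Gnat2 without either control (-0.99 and -1.08) and without 4xIOP 1 (-0.77). Both calls were also lost with a replicate block and without a filter on low values. The factor Crx, which drives photoreceptor genes, had 215 and 247 FPKM in controls and 147 and 189 FPKM in 4xIOP eyes (-0.46, limma adjusted p = 0.729), and Otx2 had 45.5 and 47.3 against 38.7 and 51.6 FPKM.

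Of 20 tested retinal ganglion cell markers 1 was called higher, beside 5.45% of all tested genes, and none lower, beside 0.693%. The median change of these markers was -0.29 in 4xIOP 1 and 0.43 in 4xIOP 2. The called marker was Spp1, which activated microglia also express (1.396). Spp1 was not called without control 2 (0.93), without 4xIOP 1 (1.76), without 4xIOP 2 (1.03), with median-of-ratios factors or without a filter on low values. The ganglion cell factor Pou4f1 had 1.84 and 1.07 FPKM in controls against 1.48 and 1.52 FPKM, the RNA-binding protein Rbpms 3.32 and 1.28 against 2.71 and 3.36 FPKM, and the neurofilament Nefl 109 and 70.1 against 57.2 and 113 FPKM. These groups overlapped, and the 95% interval of the log2 fold change of Nefl ran from -0.95 to 0.71, and a change within that interval was not detectable here. None of 15 bipolar markers and none of 16 amacrine and horizontal markers was called by limma, nor any of 24 ribbon synapse genes or 42 inner retinal channels and receptors. Without 4xIOP 1, and by voom on recovered reads, 1 ribbon synapse gene was called lower. The medians of these 4 lists lay between -0.18 and 0.09. Of 14 tested endothelial markers 1 was called higher, beside 5.45% of all tested genes, and 1 lower, beside 0.693%, the thyroid hormone transporter Slco1c1 (-1.47), whose call was lost without 4xIOP 2 (-1.12). The endothelial call to the higher side was lost without either control and without 4xIOP 2.

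Genes of tissues next to the retina also differed, and these values stand beside all others as a description of what the dissected retinas held. Of 24 listed lens crystallins and lens fiber genes 15 were tested and called higher (10 after quantile normalization), 12 of them tested only through the 4xIOP libraries and 3 expressed in controls, and all 24 listed summed to 16.3 and 11.6 FPKM in controls against 99.3 and 182 FPKM in 4xIOP eyes. Cryba1 stood at 0.27 and 0.072 FPKM in controls against 6.45 and 29.8 FPKM (4.45), Crygs at 0.358 and 0.067 against 6.26 and 15.6 FPKM (3.90), and Cryaa at 1.91 and 0.126 against 16.74 and 25.98 FPKM (4.12). Cryaa was not called without either 4xIOP library (4.43 and 3.81). The most abundant lens gene was Cryab, a small heat shock protein that glia also express (9.80 and 9.78 against 23.4 and 45.8 FPKM, 1.69). Whether lens tissue or retinal expression gave these values was not tested. Markers of the retinal pigment epithelium, the layer behind the photoreceptors that recycles retinal, went the other way. Of 10 tested members 5 were called lower, beside 0.693% of all tested genes, and none higher. Of the 5, 3 had a 4xIOP mean under 0.5 FPKM and were tested only through the controls, while 2 of the 6 others were called lower. Ttr, transthyretin, fell from 18.52 and 23.04 FPKM to 1.88 and 4.17 FPKM (-2.67), Rgr, an opsin of that epithelium, from 3.73 and 5.81 to 0.262 and 0.536 FPKM (-2.54) and Rpe65, the retinoid isomerase, from 2.38 and 5.29 to 0.254 and 0.466 FPKM (-2.26). Rpe65 was not called without either 4xIOP library (-2.08 and -2.44), and the list had 2 calls without 4xIOP 1 and 3 without 4xIOP 2. The pigment genes Pmel, Tyr and Tyrp1 did not reach the level for testing, and how much of that epithelium adhered to each retina was not measured. Of 4 tested fibroblast and 5 pericyte markers 1 and 0 were called higher, and of 4 markers of iris, ciliary body and cornea 1 was lower, a call lost without either control and without 4xIOP 1.

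Other large falls fell outside the lists. Spc25, a kinetochore protein, went from 42.1 and 29.9 FPKM to 5.58 and 7.30 FPKM (-2.39 on the log2 scale, limma adjusted p = 3.97e-05), Glb1l3, a beta-galactosidase relative, from 9.717 and 6.895 to 0.889 and 1.404 FPKM (-2.42), and Csrp3, a LIM protein of striated muscle, from 3.68 and 2.31 to 0.16 and 0.08 FPKM (-2.47). The noncoding genes E130310I04Rik (-2.46) and Gm11961 (-2.31) fell by similar amounts. Among abundant genes, Rabgef1, an exchange factor for the endosomal GTPase Rab5, dropped from 91.2 and 97.5 FPKM to 20.6 and 28.8 FPKM (-1.93), Ccdc24 from 55.5 and 71.4 to 17.2 and 17.9 FPKM (-1.81), the secreted factor Fam3c from 69.2 and 65.6 to 19.6 and 28.0 FPKM (-1.505) and Hist1h1c, a linker histone, from 95.6 and 137 to 29.9 and 42.5 FPKM (-1.67). Without control 2 the calls of Rabgef1 (-1.88), Ccdc24 (-1.63), Fam3c (-1.54) and Hist1h1c (-1.41) were lost, and those of Fam3c (-1.47) and Hist1h1c (-1.93) also without control 1. Hist1h1c was further lost without 4xIOP 1 (-1.42). A CRX-type pattern (TAATCC, either strand), added after the data were seen, lay in the promoter of 16 of 64 genes called lower (25.0%), of 9.66% of genes called higher and of 7.31% of all tested genes. The stretch upstream of Rgr shows it in capitals.
Rgr, chr14:37049139-37049218, minus strand: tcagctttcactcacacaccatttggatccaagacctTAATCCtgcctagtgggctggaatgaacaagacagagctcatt

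Loci of the sensory microRNA cluster on chromosome 6, which photoreceptors express strongly, were among the falls. Reads over such loci in these libraries come from longer transcripts and do not measure the mature microRNA. The locus of Mir183 (chromosome 6, 30169668 to 30169737, minus strand) had 25 reads in the controls and 2 in the 4xIOP libraries, or 5.83 and 3.08 against 0.516 and 0 FPKM (-2.74, limma adjusted p = 0.000122). The other 3 loci of the cluster were named after their values were seen. The neighboring Mir96 had 43.1 and 52.6 FPKM against 10.5 and 20.7 FPKM (-1.65), and Mirc35hg, the noncoding host transcript just upstream, 18.6 and 27.5 against 10.2 and 8.67 FPKM (-1.22). Mir182 lay under the fold threshold (13.6 and 19.5 against 8.42 and 8.31 FPKM, -0.92, limma adjusted p = 0.0305). Mir183 was not called without 4xIOP 2 (-2.23), Mir96 without control 2 (-1.51), and Mirc35hg without control 2 (-0.94), 4xIOP 1 (-1.33) or 4xIOP 2 (-1.10). In all, 13 of 366 tested microRNA loci (3.55%) were called lower, beside 0.693% of all tested genes, and 15 (4.10%) higher, beside 5.45%. The mature products of the 3 loci are printed because they differ by few bases in the seed, bases 2 to 8 from the 5′ end, shown in capitals. The sequences are from RefSeq.
miR-183-5p: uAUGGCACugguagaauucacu
miR-96-5p: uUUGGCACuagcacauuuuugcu
miR-182-5p: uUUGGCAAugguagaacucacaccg

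Several lists of basic cell functions held no called gene by limma at the stated threshold. These were 76 cytosolic ribosomal protein genes (median 0.21), 36 genes of respiratory complex I (0.17), 29 genes of hypoxia and glycolysis (-0.05), 19 clock genes (-0.11) and 20 chromatin and DNA methylation enzymes (0.01), beside a median of 0.10 for all tested genes. Without 4xIOP 1, 1 ribosomal gene was called higher. Ribosomal genes were higher in 4xIOP 2 than in 4xIOP 1 for all but 1 of 76 members, and their median change was -0.12 in 4xIOP 1 and 0.58 in 4xIOP 2, so the sign of that list differed between the treated libraries. Of 20 heat shock genes 1 was called higher and of 28 cholesterol genes 2 were, beside 5.45% of all tested genes, and 2 heat shock genes were called without control 1 and 1 cholesterol gene without control 2, without 4xIOP 1 or after quantile normalization. Of 10 reference genes 1 was called higher, the lysosomal enzyme Gusb (1.28), which was not called without 4xIOP 2 (1.11). Gapdh was at 8.87 and 7.94 FPKM in controls and 5.83 and 5.35 FPKM in 4xIOP eyes (-0.55, limma adjusted p = 0.164).

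Gene groups differed in which treated library was higher. Over the 748 genes called higher the median change was 1.72 in 4xIOP 1 and 1.67 in 4xIOP 2, and 378 of the 748 were higher in 4xIOP 1. Of all tested genes 27.5% were. Among tested interferon and antigen presentation genes this held for 16 of 16 GTPases (median change 2.82 against 1.83), 26 of 30 antiviral genes (2.43 against 1.98) and 7 of 7 class II genes (4.78 against 3.95). Acute-phase genes had 4 of 10 members higher in 4xIOP 1 (4.07 against 4.74), and lens genes 4 of 15 (2.73 against 2.40 in the median). These differences between 2 libraries of a group carry no test, and 4xIOP 2 was also the library with the excess of short transcripts. For the genes called lower the median change was -1.33 in 4xIOP 1 and -1.15 in 4xIOP 2.

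**Figure D5:**
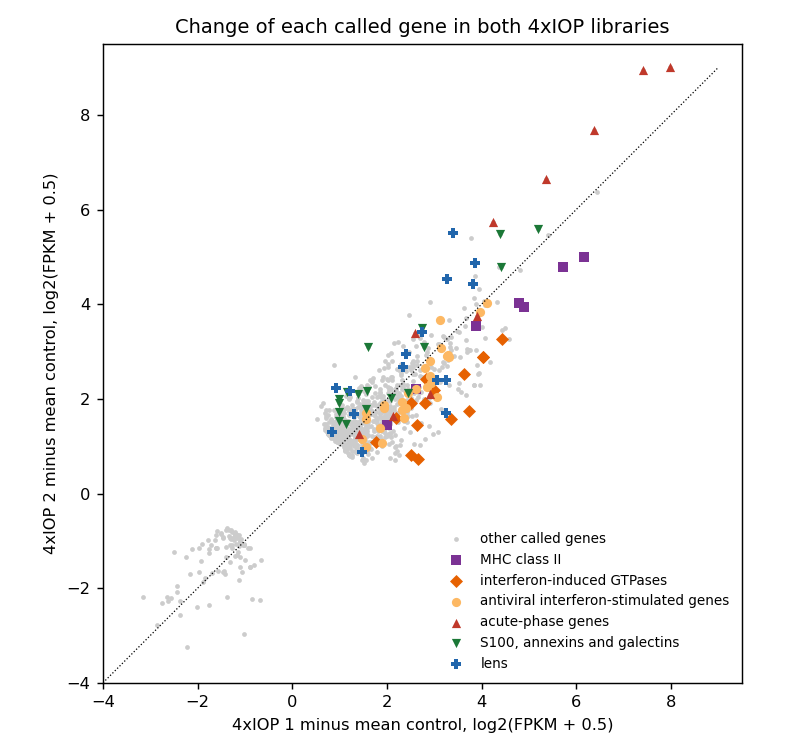
Change of each called gene in 4xIOP 1 (horizontal axis) and 4xIOP 2 (vertical axis), as log2(FPKM + 0.5) minus the mean of both controls, with the dotted line marking equal changes. Interferon-induced GTPases and MHC class II genes lie below the line, whereas Saa3, Lcn2, Serpina3n and most S100, annexin and galectin genes lie above it.

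Values of the same genes after a single elevation are set beside these, from 2 control and 2 treated retinas of 3-month-old mice on day 2 after 1 elevation to 30 mmHg for 1 h. Those libraries were deposited in another table, normalized on its own, and had Xist at 47.6 to 105 FPKM and at most 0.000907% of tags in Rpph1. Their ratio of short to long transcripts was 3.03 and 9.12 in controls and 7.04 and 5.47 in treated eyes, beside 1.97 to 2.91 here. For these reasons no test was made between the experiments. Of the 748 genes called higher after 4 elevations, 629 (84.1%) had both single-elevation libraries above both of their own controls, against 28.0% of all tested genes, and their median change there was 0.82 against 1.67 here. Of the 95 genes called lower, 23 (24.2%) had both single-elevation libraries below their controls, against 3.96% of all tested genes. Lcn2 was at 4.67 and 5.62 FPKM in the single-elevation controls and 46.5 and 68.0 FPKM in the treated eyes, and Saa3 was at 0 and 0 against 4.21 and 1.51 FPKM. Cd74 had 0.655 and 1.00 against 3.202 and 1.504 FPKM, Gfap 2.13 and 2.10 against 25.0 and 31.3 FPKM. Bcl3 stood closer in both settings, with 0.079 and 0.207 against 5.31 and 3.16 FPKM after 1 elevation. The median change of tested antiviral genes was 1.44 after 1 elevation and 2.205 after 4, and of rod markers -0.16 and -0.81. Other lists had the larger median after 1 elevation, among them pericyte and smooth muscle markers (2.17 and 0.19), fibroblast markers (1.47 and 0.48), immediate early genes (0.53 and 0.10) and retinal ganglion cell markers (0.33 and 0.06). Arr3 was at 155 and 146 FPKM in the single-elevation controls and 155 and 121 FPKM in the treated eyes. These genes were called or tested on their levels after 4 elevations, so the values set no order between the settings, and whether the 2 settings differ was not tested.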

How the data were processed

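Whole retinas of wildtype mice gave 2 libraries per group. Per the labels and the study's methods, the authors aligned stranded poly(A) RNA-seq reads to mm10 with STAR 2.7.8a, counted exon tags of 1 isoform per gene with HOMER, and deposited FPKM values, while their own tests used DESeq2 and are not used here. Groups came from the labels. Genes averaging 0.5 FPKM or more across these libraries were tested with limma 3.58.1 (R 4.3.3) on log2(FPKM + 0.5), with a trend of the variance and no replicate block. Calls were made at 0.05 after Benjamini-Hochberg adjustment, with a change of 1 or more on the log2 scale. The fit had 2 residual degrees of freedom and 10.6 prior ones. Reads recovered from the FPKM steps gave depth and the voom alternative, and 100% of the values checked came out whole within 0.15 reads. The script was tested on simulated data. Gene lists and members were chosen with earlier results of these data known. Named genes were the 15 largest rises and 10 largest falls among calls, the 5 largest rises, 3 largest falls and 3 most abundant members of each list, genes the study names, the 5 smallest p and the 10 largest changes in FPKM each way. Others were chosen after their values were seen. Libraries of the 2 groups share replicate numbers, but no source says that a number marks an animal, and no block was used. Alternatives covered the pseudocount, filter, scaling, variance trend, length, GC content, replicate block, voom and each library left out. Results for some genes are not reported here.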

Additional observations from a re-analysis of the deposited data

How the results depend on the processing

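No called gene named in the text changed its direction under any alternative, and 102 of 133 such genes kept their call in every alternative in which they were tested. At a mean of 2 FPKM, 16 of the 133 were too low to be tested. Genes called higher numbered 405 when a mean of 2 FPKM was required, which left 10582 genes to test, and 590 to 714 when 1 library was left out. Genes called lower numbered 56 without a filter on low values, which raised the genes tested to 19593, 151 with the adjusted p alone, which called 939 higher, and 68 to 92 with 1 library left out. The remaining alternatives gave 500 to 848 genes called higher and 69 to 142 called lower. With a replicate block the calls were 767 higher and 97 lower, of which 743 and 83 were also called without it. Same-numbered libraries deviated in opposite directions (correlation -0.290), and a crossed pairing, chosen after seeing the data, gave 780 higher and 114 lower. With 2 pairs, neither pairing could be established. Several uncalled genes near 0 changed sign, and the cause was not tested. With median-of-ratios factors the log2 fold change of Pou4f1 was -0.023, and with voom at -0.0161. After quantile normalization it was -0.1974, and the log2 fold change of Trim38 was -0.2007. With 1 library left out Nefl ranged from -0.6083 to 0.3736, Otx2 from -0.2574 to 0.1509, Pou4f1 from -0.2222 to 0.3499 and Rbpms from -0.1164 to 0.9849. At the depth of these libraries, a 2 kb transcript under 0.0267 FPKM rests on fewer than 3 reads.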
